A study of Mus musculus with 2 samples.

Results

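Neuropeptides are made as larger precursors that enter the regulated secretory pathway, are cut and trimmed by processing enzymes inside dense-core vesicles, and are released as short peptides that act on G protein-coupled receptors. Granins are acidic proteins that share these vesicles, help to form and load them, and are themselves cut into peptides. In the newborn brain, peptide genes mark particular neurons, such as GABA interneurons of the cortex, projection neurons of the striatum and large secretory neurons of the hypothalamus. The 10 genes described here are the somatostatin, neuropeptide Y, tachykinin, enkephalin and dynorphin precursors (Sst, Npy, Tac1, Penk and Pdyn), grouped as cortical or striatal, the oxytocin and vasopressin precursors (Oxt and Avp), grouped as hypothalamic, and the granins Scg2, Scg3 and Chgb. They were chosen by gene symbol, as every probe set whose single symbol in the platform annotation is that of a member. That gave 11 of 45101 probe sets, or 10 of 18193 named genes, with a second probe set for Tac1 only.

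RNA of the whole head of newborn mice was hybridised to 1 Affymetrix array for each of 2 genotypes, both of them offspring of T(2:9)11H translocation carriers. The MatDp(dist2) head had a maternal duplication of Chr 2 distal of the breakpoint together with a paternal duplication of distal Chr 9. The PatDp(dist2) head had the paternal duplication of distal Chr 2 together with a maternal duplication of distal Chr 9. The comparison asks which transcripts depend on the parent from whom a chromosome part came. The labels do not give the animals per sample or their sex. A whole head holds brain, eye, skin, muscle, bone and glands, so that fewer cells of a type and less RNA per cell cannot be told apart in any value below.

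Values are MAS5 signals on a linear scale, with the 2% trimmed mean at 500.002 on both arrays. A signal of 187, midway between the median signals of the 2 arrays, served as a floor, and a gene counts as measured if either head reached it. Ratios are MatDp(dist2) over PatDp(dist2), and where 1 head lay below the floor the floor took its place and the ratio is a bound. With 1 array per genotype no difference was set against a spread between replicates, and no test was made. Of 12483 measured genes, 4.43% were higher by 2-fold or more in MatDp(dist2) and 3.47% higher by 2-fold or more in PatDp(dist2), bounds included. These shares are the background for the counts of genes past 2-fold below. No share was computed over genes on both arrays alone, so a count over such genes has no background of the same kind. The median log2 ratio of the measured genes was 0.02.

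The promoter windows of 5 members are shown because they hold the 3 genes with the largest ratios (Sst, Npy and Scg3) and the 3 that carry a complete cAMP response element (Sst, Scg2 and Chgb). This element binds the transcription factor CREB and is the classical cAMP-responsive site of the somatostatin gene. Each window runs from 250 bases before to 50 bases after the annotated transcription start, written 5′ to 3′ on the gene's own strand, from RefSeq on GRCm38.p6. Capitals mark the complete element TGACGTCA, which reads the same on both strands, or its shorter core TGACG, which lies within the complete element and was also searched alone on both strands.
Sst, chr16:23890795-23891094, minus strand: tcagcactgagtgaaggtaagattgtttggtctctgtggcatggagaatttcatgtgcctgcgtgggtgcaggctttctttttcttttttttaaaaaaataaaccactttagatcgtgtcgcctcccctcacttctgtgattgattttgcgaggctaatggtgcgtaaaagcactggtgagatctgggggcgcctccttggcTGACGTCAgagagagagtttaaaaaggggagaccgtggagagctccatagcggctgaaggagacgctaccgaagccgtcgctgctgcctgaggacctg
Npy, chr6:49822460-49822759, plus strand: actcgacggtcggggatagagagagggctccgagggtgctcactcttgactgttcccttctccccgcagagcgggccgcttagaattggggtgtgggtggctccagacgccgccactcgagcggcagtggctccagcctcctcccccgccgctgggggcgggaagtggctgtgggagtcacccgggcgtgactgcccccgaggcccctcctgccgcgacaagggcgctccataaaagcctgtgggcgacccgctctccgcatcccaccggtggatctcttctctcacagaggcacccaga
Scg3, chr9:75684007-75684306, minus strand: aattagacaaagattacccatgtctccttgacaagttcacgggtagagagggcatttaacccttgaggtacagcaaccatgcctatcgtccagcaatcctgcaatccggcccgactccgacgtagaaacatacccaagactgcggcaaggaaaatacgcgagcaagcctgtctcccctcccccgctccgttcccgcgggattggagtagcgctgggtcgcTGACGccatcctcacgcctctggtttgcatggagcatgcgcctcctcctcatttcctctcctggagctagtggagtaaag
Scg2, chr1:79439977-79440276, minus strand: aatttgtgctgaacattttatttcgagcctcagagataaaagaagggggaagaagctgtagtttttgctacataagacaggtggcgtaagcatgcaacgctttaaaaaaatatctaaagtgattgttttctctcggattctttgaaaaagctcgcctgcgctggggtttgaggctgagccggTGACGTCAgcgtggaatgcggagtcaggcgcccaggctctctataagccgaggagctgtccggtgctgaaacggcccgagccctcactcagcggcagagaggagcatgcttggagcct
Chgb, chr2:132781392-132781691, plus strand: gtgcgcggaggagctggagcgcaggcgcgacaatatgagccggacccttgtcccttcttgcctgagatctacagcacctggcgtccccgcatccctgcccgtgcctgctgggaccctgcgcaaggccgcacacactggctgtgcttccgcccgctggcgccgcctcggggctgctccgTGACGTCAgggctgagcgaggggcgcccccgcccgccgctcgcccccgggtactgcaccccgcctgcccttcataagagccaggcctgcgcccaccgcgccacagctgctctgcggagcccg

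A complete element was found in 3 of the 9 members that have a window in the RefSeq table, starting 48 bases before the transcription start of Sst, 68 bases before that of Scg2 and 72 bases before that of Chgb. Of all 32851 promoter windows of this length, 1.79% held it. The shorter core alone was present in Scg3, 30 bases before the start, and in Tac1 at 197 and 43 bases before the start on the other strand, and 20.8% of all windows held the core. The related AP-1 motif TGANTCA, searched on both strands and held by 7.81% of all windows, occurred among these genes in Avp alone, 119 bases before the start. The windows of Npy, Oxt and Pdyn held none of these letters. These matches are descriptions of letters in a window, and binding was not measured.

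**Figure D1:**
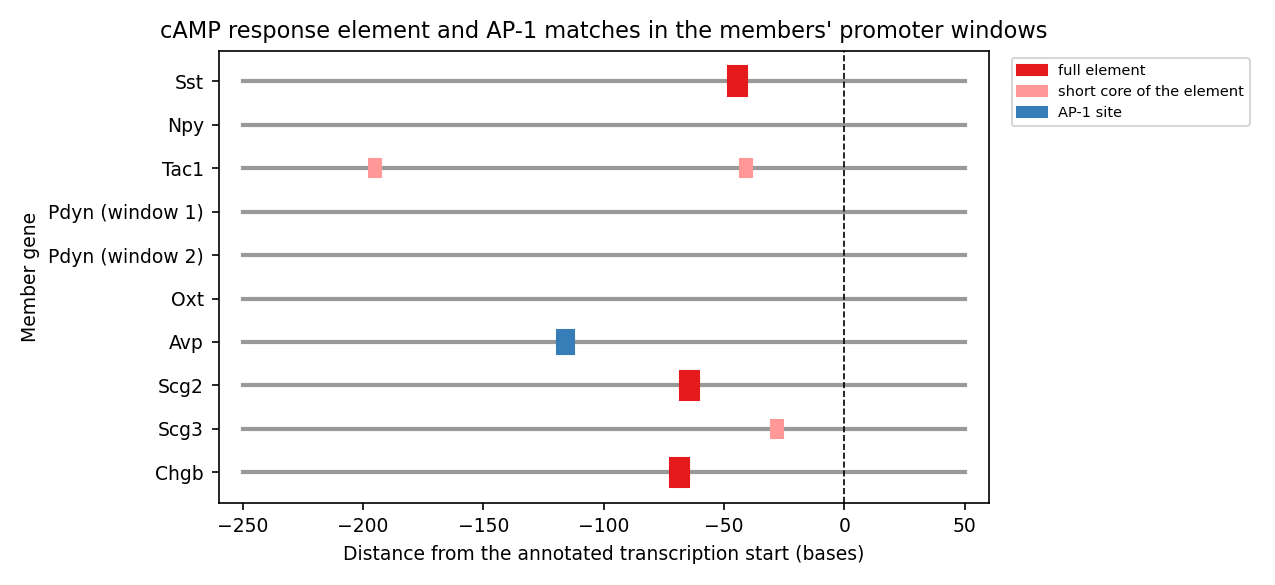
Positions of the complete cAMP response element (red), its shorter core (pink) and the AP-1 motif (blue) along each member's promoter window, in bases from the annotated transcription start (dashed line). Pdyn has a pair of annotated windows. The complete element lies 48 to 72 bases before the start in Sst, Scg2 and Chgb.

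Of the 10 genes, 8 reached the floor in both heads, Avp reached it in MatDp(dist2) only, and Pdyn lay below it in both. Among the 9 measured genes, 3 were higher by 2-fold or more in MatDp(dist2), against a background of 4.43% of measured genes, and 0 were higher by 2-fold or more in PatDp(dist2), against 3.47%. Of the 8 at or above the floor in both heads, 7 had a higher signal in MatDp(dist2), Tac1 being the exception, as had 50.1% of all genes on both arrays. Log2 ratios ran between -0.05 for Tac1 and 1.44 for Npy, with a median of 0.42 over the 9 measured genes and 0.63 over the 8 on both arrays. Avp counts among the measured genes only through the head in which it was higher, so its direction was set by the floor. The same holds below for each list gene that reached the floor in 1 head, and directions are therefore counted over genes on both arrays.

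**Figure D2:**
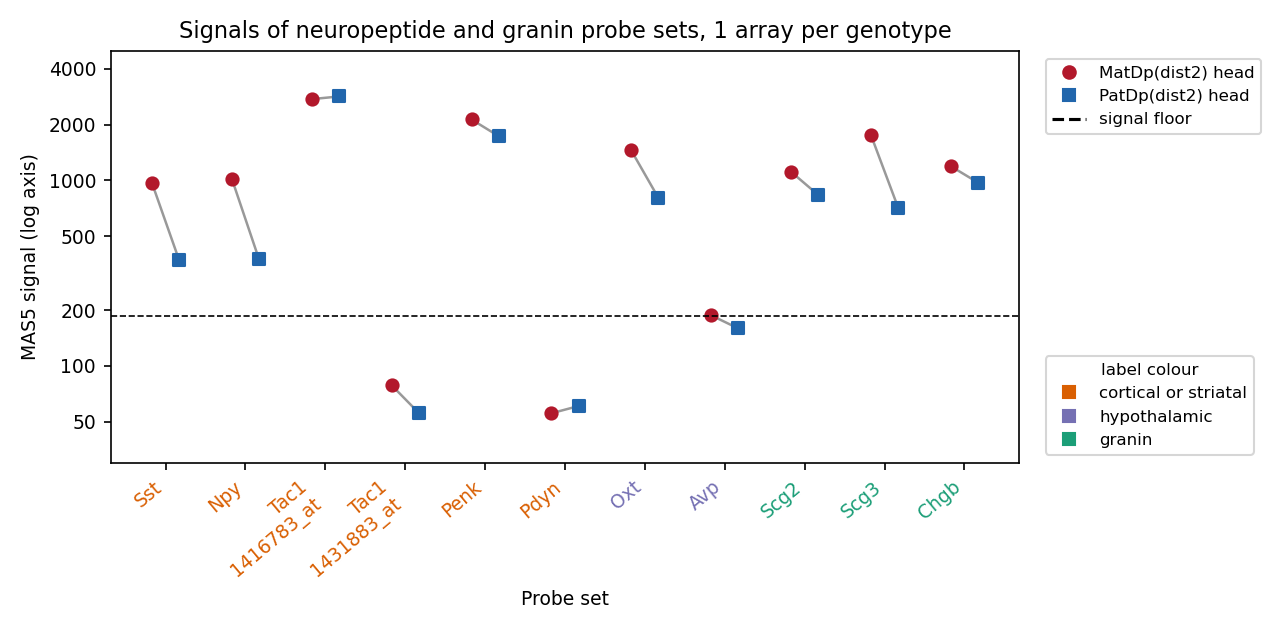
MAS5 signal (log axis) of each of the 11 probe sets in MatDp(dist2) (red circles) and PatDp(dist2) (blue squares), with the floor as a dashed line. Sst, Npy and Scg3 show the steepest drops between the 2 heads, Penk and Chgb drop modestly, and Tac1 1416783_at is nearly level.

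Somatostatin and neuropeptide Y, peptides that many cortical GABA interneurons make, were higher in MatDp(dist2) by similar folds. Sst, whose peptide inhibits neurons and the release of growth hormone, had a signal of 969 in MatDp(dist2) against 372 in PatDp(dist2), a 2.61-fold ratio. Of the 11270 genes that reached the floor on both arrays, 160 had a higher ratio. Npy, whose peptide drives feeding from the hypothalamus and is also made by sympathetic neurons, had 1020.3 in MatDp(dist2) against 376 in PatDp(dist2), a 2.71-fold ratio that 138 genes exceeded. Both were also set against genes of similar signal on both arrays, a set without bounds and so unlike that of all measured genes. Of 3353 genes within 0.5 of the mean log2 signal of Sst, 5.49% were higher by 2-fold or more in MatDp(dist2) and 2.21% had a higher ratio than Sst. Of 3364 genes within 0.5 of that of Npy, 5.23% were higher by 2-fold or more there and 1.84% had a higher ratio than Npy.

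Of the striatal precursors, Tac1 had nearly equal signals in both heads, and Penk was modestly higher in MatDp(dist2), with a ratio like that of Chgb below. Tac1, which encodes substance P and neurokinin A and is expressed in striatal projection neurons and in sensory ganglia, had 2743 in MatDp(dist2) against 2835 in PatDp(dist2) on probe set 1416783_at. Its log2 ratio of -0.05 was exceeded by 54.8% of genes that reached the floor on both arrays. The other Tac1 probe set, 1431883_at, had 78.7 in MatDp(dist2) against 55.8 in PatDp(dist2), both below the floor, and gives no ratio. Penk, the enkephalin precursor of striatal neurons that also express the dopamine receptor Drd2, had 2131 in MatDp(dist2) against 1733 in PatDp(dist2), a 1.23-fold ratio. Pdyn, the precursor of the dynorphins, which act on the kappa opioid receptor, lay below the floor with 55.6 in MatDp(dist2) against 60.8 in PatDp(dist2). Within this cortical and striatal group the ratio of Npy was 2.80 times that of Tac1.

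Oxytocin and vasopressin, made by neighbouring genes in the large secretory neurons of the hypothalamus, differed in how well they were measured. Oxt, whose peptide acts in birth, milk release and social behaviour, had 1450.1 in MatDp(dist2) against 805 in PatDp(dist2), a 1.80-fold ratio. That ratio was under 2-fold and was exceeded by 629 genes, or 5.58% of such genes. Avp, whose peptide retains water in the kidney, had 187.4 in MatDp(dist2), barely over the floor, and 159 in PatDp(dist2), below it. Its ratio, as a bound, therefore carries no information on a difference, and the signals themselves stood at 1.18-fold.

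The granins differed among themselves. Scg3, which anchors other granins to the membrane of forming vesicles, had 1757 in MatDp(dist2) against 715 in PatDp(dist2), a 2.46-fold ratio exceeded by 204 genes. Of 2946 genes within 0.5 of its mean log2 signal, 1.93% had a higher ratio. Scg2, the precursor of secretoneurin, had 1113 in MatDp(dist2) against 835 in PatDp(dist2), a 1.33-fold ratio. Chgb, chromogranin B of the vesicle core, had 1193 in MatDp(dist2) against 973 in PatDp(dist2), a 1.23-fold ratio. All 3 granins were thus higher in signal in MatDp(dist2), and only Scg3 among them passed 2-fold. Set beside the promoter windows above, the 3 genes with a complete cAMP response element had ratios of 2.61 (Sst), 1.33 (Scg2) and 1.23 (Chgb), while Npy and Scg3, without it, had ratios of 2.71 (Npy) and 2.46 (Scg3).

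**Figure D3:**
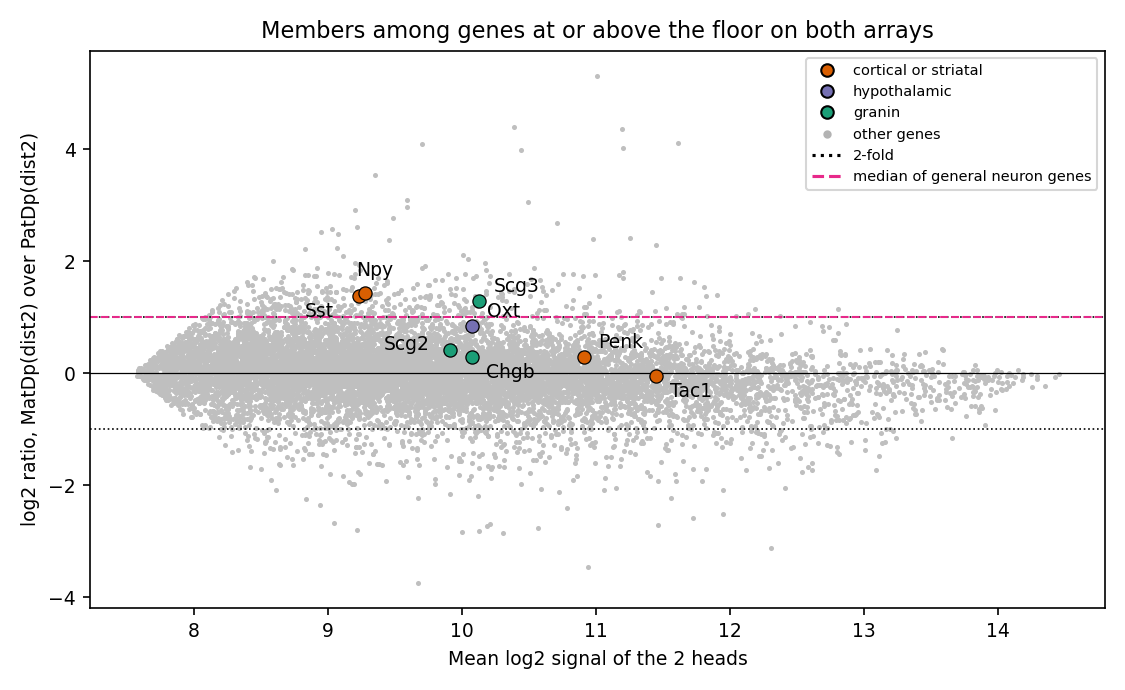
log2 ratio of MatDp(dist2) over PatDp(dist2) against the mean log2 signal for genes that reached the floor on both arrays (grey), with the 8 members among them coloured by group. Sst, Npy and Scg3 lie above the dotted 2-fold line and above the dashed median of the general neuron genes, while Tac1 lies near 0.

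By chromosome, 4 members (Pdyn, Oxt, Avp and Chgb) lie on Chr 2, all proximal of H13 in the RefSeq gene order, and Scg3 lies on Chr 9. The labels do not place the breakpoints, so whether these 5 genes lie in a duplicated part is unknown. Of the 3 genes at least 2-fold apart, Sst lies on Chr 16 and Npy on Chr 6, which the translocation does not involve. The Chr 2 members with a ratio on both arrays, Oxt and Chgb, stood at 1.80-fold and 1.23-fold.

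Granin-like precursors outside the 10 genes were mostly higher in MatDp(dist2), whereas the processing enzymes that could be compared were split. Of 4 such precursors at or above the floor in both heads, 3 had a higher signal in MatDp(dist2), 1 was higher by 2-fold or more there and 0 in PatDp(dist2), with a median log2 ratio of 0.76. The fifth, Vgf, a granin-like precursor of several peptides, reached the floor in MatDp(dist2) only, with 315.2 there against 168 in PatDp(dist2). Pcsk1n, the precursor of an inhibitor of the convertase Pcsk1, had 1525 in MatDp(dist2) against 668 in PatDp(dist2), a 2.28-fold ratio. Scg5, a chaperone of the convertase Pcsk2, had 1298 in MatDp(dist2) against 683 in PatDp(dist2), a 1.90-fold ratio. Nucb2, the nesfatin precursor, had 746 in MatDp(dist2) against 834.5 in PatDp(dist2). Chga, chromogranin A, named here after its values were seen, had 548 in MatDp(dist2) against 364 in PatDp(dist2), a log2 ratio of 0.59.

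Of 7 enzymes that cut and finish peptide precursors and reached the floor in both heads, 3 had a higher signal in MatDp(dist2) and 4 in PatDp(dist2), 0 were at least 2-fold apart in either direction, and the median log2 ratio was -0.11. Pam, which amidates the ends of peptides, reached the floor in MatDp(dist2) only. Cpe, the carboxypeptidase that trims basic residues from neuropeptides, had 10967 in MatDp(dist2) against 9192 in PatDp(dist2), a 1.19-fold ratio. Furin, a convertase of the general secretory pathway, had 1055 in MatDp(dist2) against 1139.8 in PatDp(dist2). Cpd, a carboxypeptidase of that pathway found in many tissues, had 1228 in MatDp(dist2) against 1762.5 in PatDp(dist2), where it was 1.43-fold higher. The neuroendocrine convertase Pcsk1 lay below the floor in both heads, and the convertase Pcsk2 had no probe set with a single symbol. Neither therefore enters these counts.

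Genes of the dense-core vesicle membrane and of its release machinery were higher in signal in MatDp(dist2), like the granins. All 14 genes of this list on both arrays had a higher signal in MatDp(dist2), as had 50.1% of all genes on both arrays, 2 of them at least 2-fold and 0 in the other direction, with a median log2 ratio of 0.55. Slc18a2 and Unc13a reached the floor in MatDp(dist2) only. Snap25 of this list also stands among the general neuron genes. The pair past 2-fold were the synaptotagmins Syt4, with 1988 in MatDp(dist2) against 803 in PatDp(dist2) (2.48-fold), and Syt7, a calcium sensor of vesicle release, with 1129 in MatDp(dist2) against 516 in PatDp(dist2) (2.19-fold). The vesicle fusion protein Vamp2 had 2875.5 in MatDp(dist2) against 1864 in PatDp(dist2), a 1.54-fold ratio. Rab3a, a small GTPase of secretory vesicles, had 4262 in MatDp(dist2) against 3709.9 in PatDp(dist2), and the vesicle chaperone Dnajc5 had 2660.4 in MatDp(dist2) against 2489 in PatDp(dist2), so that both differed little.

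Receptors of the member peptides were mostly too dim to compare. Of 18 receptor genes, 13 lay below the floor in both heads, among them those for oxytocin (Oxtr), neuropeptide Y (Npy1r, Npy2r and Npy5r) and enkephalin (Oprd1). Of the 5 measured, 0 were at least 2-fold apart in either direction, and 3 reached the floor in 1 head only. The somatostatin receptor Sstr2 had 304 in MatDp(dist2) against 138 in PatDp(dist2), which makes it at least 1.63-fold higher in MatDp(dist2). Sstr4, also a somatostatin receptor, had 423 in MatDp(dist2) against 285 in PatDp(dist2), a log2 ratio of 0.57, and the dynorphin receptor Oprk1 had 248 in MatDp(dist2) against 228 in PatDp(dist2).

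Other neuropeptide precursors were divided between the heads. Of 26 with a probe set, 8 reached the floor in both heads, 3 with a higher signal in MatDp(dist2) and 5 with a higher signal in PatDp(dist2), and their median log2 ratio was -0.05. Another 3 reached it in 1 head only. Nts, the neurotensin precursor, was the single gene of the list higher by 2-fold or more in MatDp(dist2), with 803.5 there and 367 in PatDp(dist2), a 2.19-fold ratio, and 0 were higher by 2-fold or more in PatDp(dist2). Pomc, the precursor of ACTH, melanocortins and endorphin, had 368 in MatDp(dist2) against 683 in PatDp(dist2), where it was 1.86-fold higher. Cartpt, a precursor of appetite-regulating peptides, had 355 in MatDp(dist2) against 365 in PatDp(dist2).

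**Figure D4:**
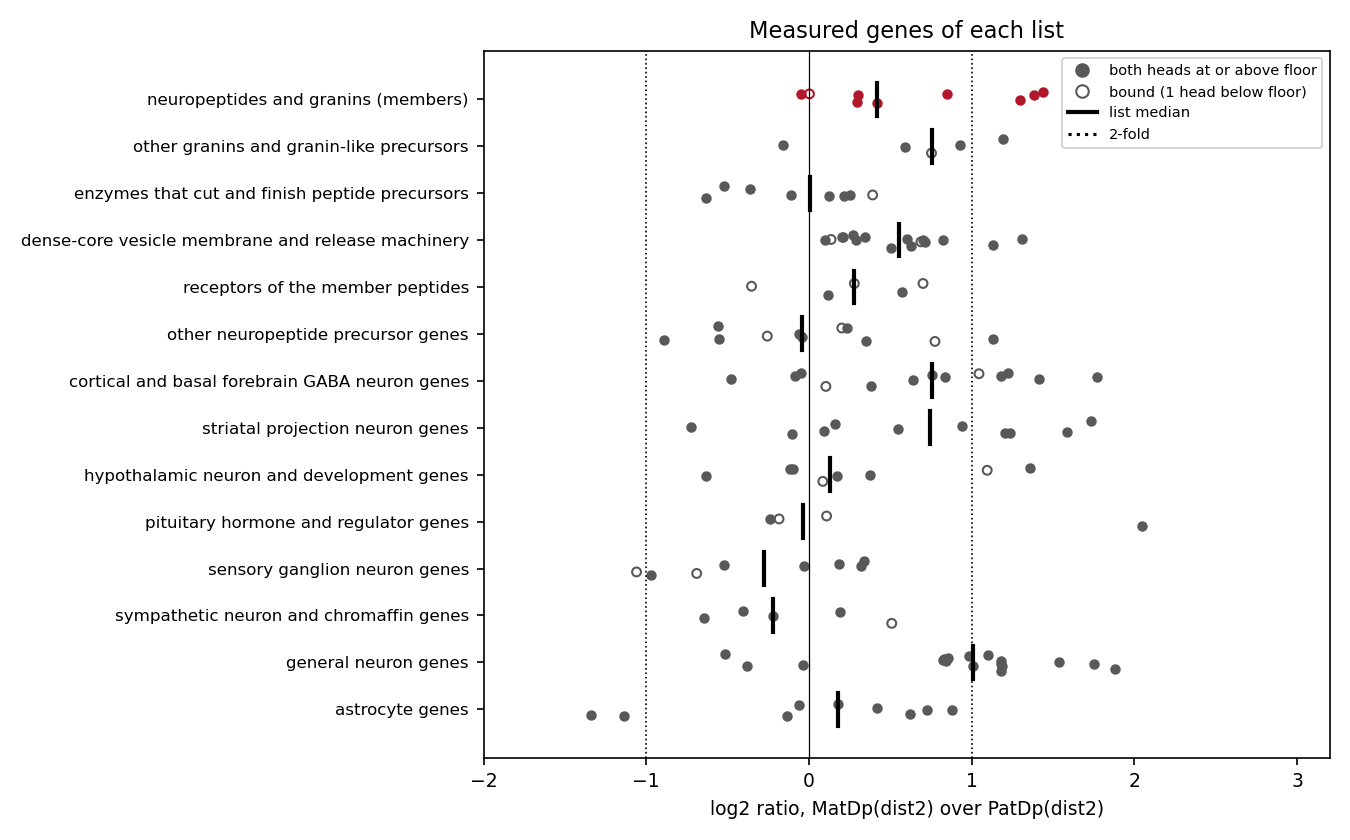
log2 ratio of MatDp(dist2) over PatDp(dist2) for the measured genes of each list, with the member genes in red at the top, open circles for bounds and a black bar for each list's median. All 14 dense-core vesicle genes with filled circles lie above 0, while the processing enzymes spread on both sides of it.

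Markers of neurons were mostly higher in signal in MatDp(dist2). Of 17 general neuron genes, all measured, 14 had a higher signal in MatDp(dist2) and 3 in PatDp(dist2). Among them 9 were higher by 2-fold or more in MatDp(dist2), against 4.43% of all measured genes, and 0 in PatDp(dist2), against 3.47%. Their summed signal was 58046.6 in MatDp(dist2) against 32312 in PatDp(dist2), and the median ratio was 2.02-fold. Stmn2 and Stmn3, microtubule regulators of growing neurons, had ratios of 1.79-fold and 1.81-fold, while the neurofilament gene Nefl was 1.43-fold higher in PatDp(dist2). Set against that median, Npy, Sst and Scg3 lay 0.43, 0.37 and 0.29 above it on the log2 scale, and the other 5 members on both arrays lay below it, between -0.16 for Oxt and -1.06 for Tac1. The neuron genes themselves had log2 ratios between -0.51 for Nefl and 1.88 for Tubb3, the latter named after its values were seen. The ratios of all these members, Npy, Sst and Scg3 included, lay within that range. Avp, a bound, was not placed. The part of the neuron genes in the members' differences was not tested.

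Of 11 genes of cortical and basal forebrain GABA neurons on both arrays, 8 had a higher signal in MatDp(dist2) and 3 in PatDp(dist2). Among them 4 were higher by 2-fold or more in MatDp(dist2) and 0 in PatDp(dist2). Dlx1 and Dlx6 reached the floor in MatDp(dist2) only, and as a bound Dlx1 was at least 2.06-fold higher there. Bounds included, 5 of the 13 measured genes were higher by 2-fold or more in MatDp(dist2), against 4.43% of all measured genes. The list had summed signals of 13739 in MatDp(dist2) against 8865 in PatDp(dist2) and a median log2 ratio of 0.75. Summed signals, here and for the lists below, are over all genes of a list with a probe set, those below the floor included. Reln, a secreted guidance protein made by a subset of them, had 2898 in MatDp(dist2) against 1282 in PatDp(dist2), a 2.26-fold ratio. Satb1, with 2004 in MatDp(dist2) against 2124 in PatDp(dist2), and Sox6, with 1332 in MatDp(dist2) against 1857 in PatDp(dist2), are regulators needed by Sst interneurons and did not share that direction. Lhx6, the regulator of interneurons that make Sst, was named after its values were seen and had 448 in MatDp(dist2) against 192 in PatDp(dist2), a 2.33-fold ratio.

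Of 10 measured genes of striatal projection neurons, 8 had a higher signal in MatDp(dist2) and 2 in PatDp(dist2). Among them 4 were higher by 2-fold or more in MatDp(dist2), against 4.43% of all measured genes, and 0 in PatDp(dist2), against 3.47%. The summed signals of the list were 15064 in MatDp(dist2) against 9213 in PatDp(dist2), and the median log2 ratio of the measured genes was 0.74. Bcl11b, a regulator of these neurons, had 2481 in MatDp(dist2) against 827 in PatDp(dist2), a log2 ratio of 1.59. The transcription factor gene Meis2 had 3937 in MatDp(dist2) against 2056 in PatDp(dist2), and Foxp1, also a transcription factor gene, had 2010.1 in MatDp(dist2) against 1889 in PatDp(dist2). The 2 genes with a higher signal in PatDp(dist2), named after their values were seen, were Ebf1 and Ppp1r1b. Ebf1 had 892 in MatDp(dist2) against 1474 in PatDp(dist2), and Ppp1r1b had 213 in MatDp(dist2) against 229 in PatDp(dist2). The dopamine receptors Drd1 and Drd2, which define the neurons that make Tac1 and Penk, lay below the floor in both heads. The striatal label of those precursors was therefore not borne out or contradicted by these receptors.

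Of 6 hypothalamic genes on both arrays, 3 had a higher signal in each head and 1 was higher by 2-fold or more in MatDp(dist2) and 0 in PatDp(dist2), with a median log2 ratio of 0.04. Pou3f2 and Nr5a1 reached the floor in MatDp(dist2) only, and as a bound Pou3f2 was at least 2.14-fold higher there. The summed signals of the list were 4971 in MatDp(dist2) against 3456 in PatDp(dist2). Arnt2, a regulator needed for oxytocin and vasopressin neurons, had 1393 in MatDp(dist2) against 542.5 in PatDp(dist2), a 2.57-fold ratio. Otp, another such regulator, had 585 in MatDp(dist2) against 519.9 in PatDp(dist2), and Magel2 had 808 in MatDp(dist2) against 624 in PatDp(dist2). The 3 genes with a higher signal in PatDp(dist2), named after their values were seen, were Sim1, Lhx8 and Irs4. Sim1 had 287 in MatDp(dist2) against 312 in PatDp(dist2), Lhx8 had 440 against 471, and Irs4 had 344 against 533.

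Peripheral neurons also make some of these peptides, and their genes were divided between the heads. Of 6 genes of sensory ganglia, which express Tac1, on both arrays, 3 had a higher signal in each head, 0 were at least 2-fold apart in either direction, and the median log2 ratio was 0.08. P2rx3 and Avil reached the floor in PatDp(dist2) only, and as a bound Avil was at least 2.08-fold higher there. With these bounds included, the median log2 ratio of the list was -0.28. The summed signals of the list were 2280.1 in MatDp(dist2) against 3099 in PatDp(dist2). Prph, the intermediate filament of peripheral neurons, had 480.4 in MatDp(dist2) against 942 in PatDp(dist2), Prrxl1 had 274 in MatDp(dist2) against 394 in PatDp(dist2), and Pou4f1 had 324 in MatDp(dist2) against 260.4 in PatDp(dist2). Of 4 sympathetic and chromaffin genes on both arrays, 1 had a higher signal in MatDp(dist2) and 3 in PatDp(dist2), where 49.9% of all genes on both arrays were higher. Among them 0 were at least 2-fold apart in either direction, and the median log2 ratio was -0.31. Gata3 reached the floor in MatDp(dist2) only, and the summed signals of the list were 2727 in MatDp(dist2) against 3535 in PatDp(dist2). Ddc, an enzyme of monoamine synthesis, had 1348 in MatDp(dist2) against 2110.1 in PatDp(dist2), Hand2 had 278 in MatDp(dist2) against 368 in PatDp(dist2), and the noradrenaline transporter Slc6a2 had 277 in MatDp(dist2) against 243 in PatDp(dist2). Th, the defining enzyme of catecholamine synthesis, lay below the floor in both heads. The part of these cells in the values of Tac1 and Npy was not tested.

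Sst, Npy and Scg3 stayed at or above 2-fold under each of 7 alternatives of floor, scaling, offset and probe set choice. Their ratios ran between 2.08-fold and 2.61-fold for Sst, between 2.19-fold and 2.71-fold for Npy and between 2.28-fold and 2.47-fold for Scg3. The lower floor and the mean over probe sets could not change these ratios, and the floor at the 70th percentile could not change that of Scg3. With the floor at the 70th percentile, 465, the PatDp(dist2) signals of Sst and Npy lay below it. The lowest values of their ranges, 2.08-fold and 2.19-fold, are therefore bounds set by that floor. The log2 ratio of Tac1 lay between -0.08 and 0.06 in all of them and changed sign with quantile normalization and with the loess fit. With the median of the general neuron genes subtracted, an alternative added after the data were seen, 0 of the 9 measured members were higher by 2-fold or more in MatDp(dist2) and 1, Tac1, was at least 2-fold lower. The call on Tac1 comes from the subtraction, as its signals were nearly equal in both heads. No share over all genes was computed after the subtraction, so these counts have no background. Avp then has only a lower limit to its ratio, which gives no call.

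**Figure D5:**
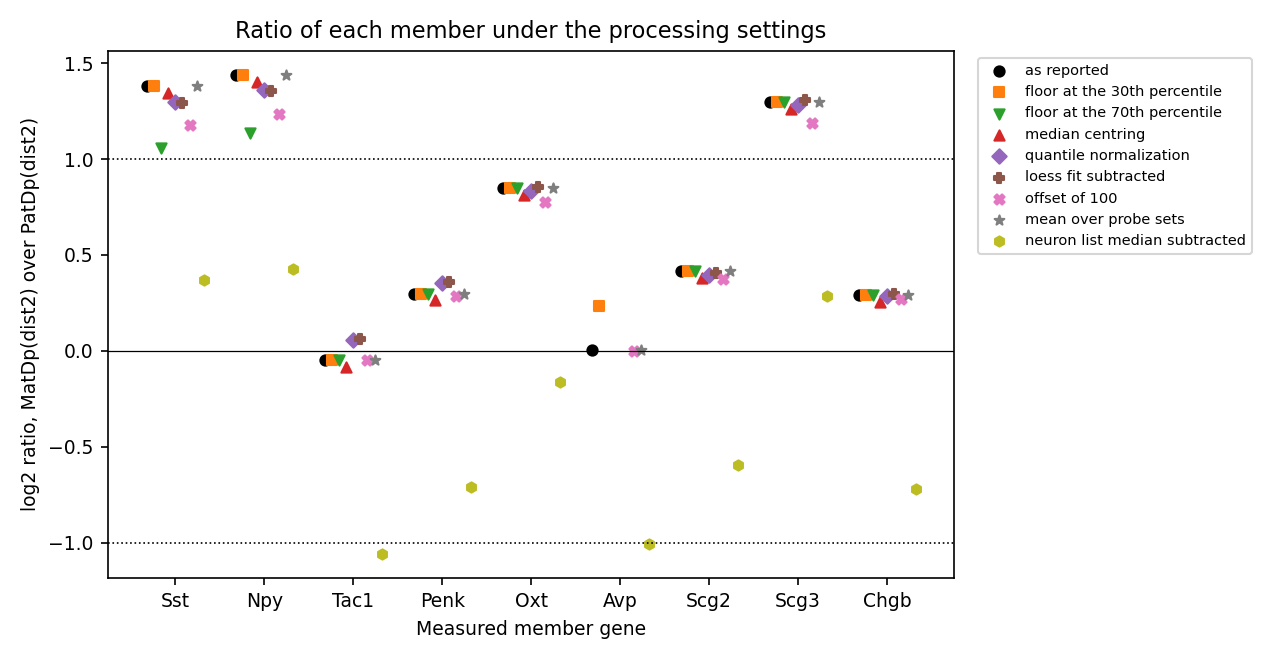
log2 ratio of MatDp(dist2) over PatDp(dist2) for the 9 measured members as reported (black) and under 7 alternative settings, plus the ratio after subtracting the median of the general neuron genes, where the point of Avp is a lower limit. Sst, Npy and Scg3 stay above the dotted 2-fold line except after that subtraction.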

How the data were processed

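RNA of newborn heads was measured on 2 arrays, 1 per genotype. The deposited values are linear MAS5 intensities, 1 for each probe set and array. The submitters' processing notes name MAS5 and GCOS, with no version. MAS5 subtracts mismatch probes and is noisy at low signal, and detection calls were not used, so a floor took their place. The genome build is not stated. Of 45101 probe sets, 64 controls were left out, 34945 had 1 gene symbol, updated by gene ID through RefSeq, and 932 had several and were left unnamed. For each gene the probe set of highest mean log2 signal was taken. Log2 ratios were computed with Python 3.11.15, pandas 2.3.3 and statsmodels 0.14.6, and the counting was tested on simulated data. Precision is limited by having 1 array per genotype.

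The members and the 13 gene lists (5 of pathways, 8 of markers, 194 entries, 174 with a probe set) were chosen with earlier results of these data known. The text names every member, the 3 genes of each list with the highest mean signal and, in pathway lists, each gene at least 2-fold apart. List genes named for reaching the floor in 1 head only were chosen after their values were seen. Alternatives were a floor at the 30th or 70th percentile, median centring, quantile normalization, a loess fit, an offset of 100, the mean over probe sets, and thresholds of 1.5-fold and 3-fold.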

Additional observations from a re-analysis of the deposited data

How the results depend on the processing

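At a 3-fold threshold 0 of the 9 measured members were higher in MatDp(dist2), against 146 of 12483 measured genes. At 1.5-fold there were 4, with Oxt, against 1496 of 12483. Over all measured genes, the count higher by 2-fold or more in MatDp(dist2) was 553 of 12483 as reported and 356 of 12483 with the offset of 100. The floor also changes how many genes are measured. With the floor at the 30th percentile the count was 833 of 15196 genes, and with it at the 70th it was 266 of 9032. At the 3-fold and 1.5-fold thresholds the all-gene counts for the PatDp(dist2) head were 100 and 1353, against 433 as reported. The median log2 ratio of the members, 0.42 as reported, was 0.63 with the floor at the 70th percentile, 0.60 with median centring, 0.61 with quantile normalization and 0.63 with the loess fit, settings under which Avp fell below the floor and 8 members were left, and 0.38 with the offset of 100. Subtracting the median of the general neuron genes, added after the data were seen, gave -0.60. Avp enters that median at its lower limit, so -0.60 is a lower limit too. After the subtraction 0 members were higher by 2-fold or more in MatDp(dist2) and 1, Tac1, in PatDp(dist2). Tac1 had nearly equal signals in both heads and is called through the subtraction alone. No count over all genes was made for this setting, so these counts have no background. Avp had a ratio of 1.18-fold with the lower floor and none with the higher floor, median centring, quantile normalization or the loess fit. No spread between replicates is at hand to judge these shifts. No paired analysis was possible because each genotype has 1 array.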

Other observations

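Astrocyte and pituitary genes, from cells that share the head with the peptide neurons, gave mixed values. Of 9 measured astrocyte genes, 0 were higher by 2-fold or more in MatDp(dist2) and 2 in PatDp(dist2), with a median log2 ratio of 0.18. The summed signals of the list were 25822 in MatDp(dist2) against 23309.7 in PatDp(dist2). Fabp7, a fatty acid binding protein of radial glia, had 10109 in MatDp(dist2) against 5499 in PatDp(dist2), while the gap junction gene Gja1 had 9755.5 in MatDp(dist2) against 10735 in PatDp(dist2) and Aldoc had 2165 in MatDp(dist2) against 2261 in PatDp(dist2). The pair higher by 2-fold or more in PatDp(dist2) was Aqp4, the astrocyte water channel, with 737.5 in MatDp(dist2) against 1621 in PatDp(dist2), and S100b, with 511 in MatDp(dist2) against 1292 in PatDp(dist2), both named after their values were seen.

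Of 4 measured pituitary genes, Ghrhr and Lhx3 reached the floor in 1 head only. Of the other 2, 1 was higher by 2-fold or more in MatDp(dist2) and 0 in PatDp(dist2), with summed signals of the list of 3430.4 in MatDp(dist2) against 1710.2 in PatDp(dist2). Gh, growth hormone, whose release somatostatin inhibits, had 2146 in MatDp(dist2) against 519 in PatDp(dist2), a 4.14-fold ratio. The regulators Pitx1, with 363 in MatDp(dist2) against 429 in PatDp(dist2), and Lhx3, with 184 in MatDp(dist2) against 212.5 in PatDp(dist2), were the other pituitary genes with the highest mean signals.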
